A study of Mesocricetus auratus with 6 samples.

Results

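The genes described here are 10 sensors, adaptors and kinases that detect foreign or misplaced RNA and DNA inside a cell. They were taken by symbol as *Ddx58*, *Ifih1*, *Dhx58*, *Mavs*, *Traf3*, *Tbk1*, *Ikbke*, *Tlr3*, *Tlr7* and *Sting1*, and all 10 were found among the 31593 genes measured. RNA-seq was run on cortex, on the suprachiasmatic nucleus (SCN), which is the site of the master circadian clock, and on liver of Syrian hamsters. The *duper* hamsters carry a null mutation of *Cry1*, a repressor of the circadian clock, and were compared with wild-type hamsters that carry no such mutation. All hamsters were raised in 14 h of light and 10 h of darkness, and tissues were collected at circadian time 15, in the subjective night.

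Each genotype was represented by 4 hamsters and by 1 set of values per tissue, so that 6 sets of values entered each comparison. For cortex and SCN, RNA of the 4 hamsters was mixed into 1 library. Each genotype had 4 liver libraries but 1 set of liver values, which is called a library below. The *duper* hamsters were all female and the wild-type hamsters were of both sexes, so sex and genotype cannot be told apart. The total estimated count was 6788947 in wild-type cortex and 10391925 in *duper* cortex, 29936218 in wild-type SCN and 7248840 in *duper* SCN, and 69839214 in wild-type liver and 85748562 in *duper* liver. The values analysed here hold no replicate in any tissue, and since each genotype gave all its tissues from 1 set of hamsters, the tissues are not independent replicates. In such bulk tissue, fewer cells of a type and less RNA per cell cannot be told apart.

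RIG-I (encoded by *Ddx58*) and MDA5 (encoded by *Ifih1*) bind viral RNA in the cytosol and signal through MAVS on the mitochondrial surface. TLR3 and TLR7 sense double-stranded and single-stranded RNA in endosomes, and STING responds to the cyclic dinucleotide that cGAS makes when it meets DNA. The routes from MAVS, TLR3 and STING meet at the kinases TBK1 and IKKε, which activate transcription factors of type I interferon genes, whereas TLR7 signals through MYD88, and several of the sensors are themselves induced by interferon.

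The labels of tissue and genotype were checked against marker genes. The hepatocyte gene *Alb* had 107273 TPM (a transcript level scaled for length and library total) in wild-type liver and 112117 TPM in *duper* liver, against 43.9 to 112 TPM in the brain libraries. The cortical glutamatergic gene *Slc17a7* had 767 and 669 TPM in wild-type and *duper* cortex and at most 8.61 TPM elsewhere. *Nms*, a neuropeptide of the SCN, had 33.5 TPM in wild-type SCN and 13.4 TPM in *duper* SCN and was at 0 in the other 4 libraries. Of 6 SCN markers, 1 was higher in *duper* SCN (median log2 ratio −0.52), and their summed TPM there was 95.3 for wild type and 59.2 for *duper*, with *Rorb* the most abundant over all libraries. In the same libraries the summed TPM of 4 choroid plexus markers, of which *Ttr* was the most abundant, was 193 and 39.3. That sum was higher in *duper* in the other tissues. It came to 1859 and 2524 TPM in wild-type and *duper* cortex and to 15222 and 15444 TPM in liver. Such a sum mainly follows its most abundant gene. Marker by marker, 2 of the 4 were higher in *duper* cortex (median log2 ratio 0.10) and 1 of the 4 in *duper* SCN (−1.16). In liver only 2 of the 4 averaged at least 1 TPM, so the liver sum does not describe these markers as a set. Summed TPM of 4 erythroid markers, of which *Alas2* was the most abundant, was lower in *duper* in each tissue, with 3.11 against 9.44 for cortex, 6.38 against 19.7 for SCN and 7.89 against 16.6 for liver. Of 3 erythroid markers tested, 3 were lower and 2 had an unadjusted p under 0.05 (1.52% of all genes in that direction), with 0 called in edgeR. The part of these differences in the SCN ratios of *Ddx58*, *Ifih1*, *Dhx58* and *Ikbke* given below was not tested. The mutated gene *Cry1* stood at 33.3 TPM for wild type and 8.56 TPM for *duper* in cortex, at 22.9 and 8.14 TPM in SCN and at 16.8 and 5.44 TPM in liver. *Cry1* was therefore lower in *duper* in all 3 tissues, at a log2 fold change of −1.69 (standard error 0.17), and it was called by DESeq2 but not by limma or by the test used here (edgeR, adjusted p = 0.131).

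Across the 3 tissues, 5 of the 10 sensing genes had a positive and 5 a negative log2 fold change of *duper* over wild type, with a median of 0.03. The 3 with the largest positive values were *Dhx58*, *Tlr7* and *Ifih1*, and these were also the members with a higher TPM in *duper* in each of the 3 tissues. To be called, a gene needed an adjusted p below 0.05 together with a log2 fold change beyond 0.58 in either direction in edgeR's quasi-likelihood test, with tissue and genotype as terms. By that rule 0 of the 10 were called, beside 1 of the 18275 genes tested (0.00547%), and the adjusted p was 0.998 for each of the 10. DESeq2 with size factors called 41 genes and limma called 3, in both cases with 0 of the 10 among them. An unadjusted p under 0.05 was reached by 3 of the 10 in edgeR, all with a higher level in *duper*, where 1.79% of all genes tested were higher and 1.52% lower at that limit. It was reached by 3 of the 10 in DESeq2 and by 1 in limma, and in edgeR by 0 of the 10 when either SCN library was left out. With any 1 library left out, edgeR called 0 to 42 genes, none of them a member.

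**Figure D1:**
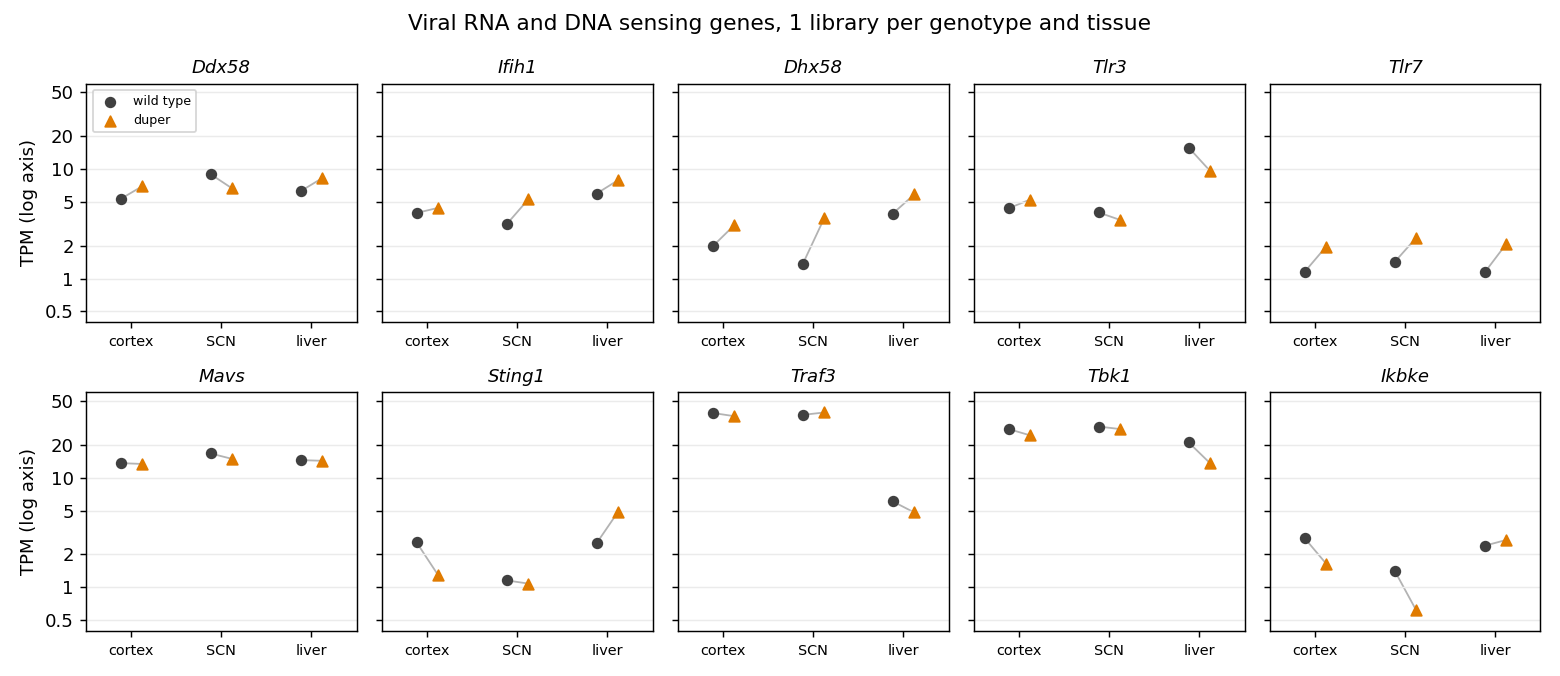
TPM (log axis) of each sensing gene in cortex, SCN and liver, with 1 point per library, circles for wild type and triangles for *duper*. *Ifih1*, *Dhx58* and *Tlr7* are higher in *duper* in each tissue, *Traf3* lies between 36.4 and 39.3 TPM in the brain libraries and at 6.08 and 4.81 TPM in liver, and *Ikbke* is lowest in *duper* SCN at 0.616 TPM.

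By TPM, 3 of the 10 (*Ifih1*, *Dhx58* and *Tlr7*) were higher in *duper* in all 3 tissues, as were 9.52% of the 12484 genes averaging at least 1 TPM in every tissue. *Mavs* and *Tbk1* were lower in all 3, as were 14.1% of those genes, but *Mavs* turned higher in liver (log2 ratio 0.14) once TPM was rescaled by TMM factors. Within a tissue, a log2 ratio of TPM plus 1 beyond 0.58 served as a limit without a test, among genes averaging at least 1 TPM in its 2 libraries. In cortex 0 of the 10 were above that limit (8.24% of all genes) and 1, *Sting1*, was below it (7.75%). In SCN *Ifih1* and *Dhx58* were above it (6.67%) and *Ikbke* was below it (7.7%). In liver *Sting1* was above it (4.75%), while *Tbk1* and *Tlr3* were below it (10.5%). The median log2 ratio of the 10 was 0.05 for cortex, −0.06 for SCN and 0.24 for liver, where that of all genes was 0.02, 0.02 and −0.10. Relative to the liver median of all genes, the ratios of *Tbk1* and *Tlr3* were −0.50 and −0.56, inside the limit, and those of *Dhx58* and *Tlr7* were 0.59 and 0.63, above it. With TMM-normalized CPM in place of TPM, 4 of the 10 were above the limit in liver and 0 below it, and the liver median of all genes was 0.06. The shares of all genes given earlier, 4.75% and 10.5%, were taken with TPM and do not apply to these counts. With TPM rescaled by TMM factors *Ifih1* and *Ikbke* were inside the limit in SCN, at 0.57 and −0.48. With a pseudocount of 0.1 in place of 1, 2 of the 10 were above and 2 below it in cortex, and 3 above and 1 below it in SCN. Nor do the shares given earlier apply here, since they were taken with a pseudocount of 1.

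*Ddx58*, whose product RIG-I recognizes short double-stranded RNA with a triphosphate end, had 5.32 TPM in wild-type cortex and 6.94 TPM in *duper* cortex. The SCN levels were 8.95 and 6.63 TPM, from estimated counts of 461 and 82, and the liver levels 6.27 and 8.24 TPM, from 879 and 1352. Its highest level was thus that of wild-type SCN and its lowest that of wild-type cortex, so that the genotypes overlapped. Divided by the wild-type TPM, the *duper* TPM gave a ratio of 1.31 for cortex, 0.741 for SCN and 1.31 for liver, with 95% counting intervals (Clopper-Pearson, counting error only) of 0.944 to 1.82, 0.578 to 0.938 and 1.21 to 1.43. Counting error therefore left the SCN ratio below 1 and the liver ratio above 1, and whether these tissues differ was not tested. Across tissues the log2 fold change was 0.08 (standard error 0.22), and it was −0.18 without the liver libraries.

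*Ifih1* encodes MDA5, a sensor of long double-stranded RNA. It stood at 3.96 TPM for wild type and 4.41 TPM for *duper* in cortex, at 3.12 and 5.27 TPM in SCN and at 5.96 and 7.91 TPM in liver. The *duper* library was the higher in each tissue, and the lowest value of all was that of wild-type SCN. The cortex ratio was 1.11 (95% counting interval 0.834 to 1.50), the SCN ratio 1.69 (1.36 to 2.08) and the liver ratio 1.33 (1.25 to 1.41), so that the difference in cortex was not detectable at this depth. *Ifih1* had the smallest standard error of the 3 members at an unadjusted p under 0.05, at a log2 fold change of 0.55 (standard error 0.15), with an edgeR adjusted p of 0.998 and of 0.299 to 1 over 16 other settings.

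*Dhx58* encodes LGP2, a relative of RIG-I and MDA5 without their signalling domains, which assists MDA5 and restrains RIG-I. It stood at 1.96 TPM for wild type and 3.06 TPM for *duper* in cortex, from only 14 and 33 counts. In SCN it had 1.35 and 3.55 TPM, and in liver 3.90 and 5.85 TPM. All 3 *duper* values were above the wild-type value of the same tissue, and the wild-type liver value was above both *duper* brain values. The cortex ratio was 1.56 (95% counting interval 0.812 to 3.16), the SCN ratio 2.64 (1.61 to 4.25) and the liver ratio 1.50 (1.32 to 1.71). Its log2 fold change across tissues, 0.92 (standard error 0.28), was the largest of the 10, with an adjusted p of 0.312 to 1 over the same other settings.

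Between the 3 RNA sensors, *Ddx58* was the most and *Dhx58* the least abundant by TPM in every library. *Ddx58* exceeded *Dhx58* by a factor of 6.65 in wild-type SCN and of 1.87 in *duper* SCN. In liver the factor was 1.61 in wild type and 1.41 in *duper*, and *Ddx58* and *Ifih1* were there within a factor of 1.05 of each other. The sensors therefore lay farther apart in wild-type SCN than in any other library, which has no replicate.

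A list of 20 cofactors and regulators of RIG-I and MDA5 was tested beside them. None was called for genotype in edgeR, DESeq2 or limma. In edgeR 2 had an unadjusted p under 0.05, both higher in *duper*, as were 1.79% of all genes tested. These were *Ddx60*, a helicase that promotes RIG-I signalling, at a log2 fold change of 1.28 (standard error 0.26), and *Ddx3x*, a helicase that binds MAVS and TBK1, with 0.44 (standard error 0.13). *Ddx60* stood at 0.669 and 0.962 TPM in wild-type and *duper* cortex, at 0.776 and 3.05 TPM in SCN and at 5.15 and 9.60 TPM in liver. *Trim25*, whose product attaches ubiquitin to RIG-I, had a log2 fold change of 0.06, and *Pcbp2*, a negative regulator of MAVS and the most abundant of the list, had 0.08. Next in size came *Dhx15* at 0.22, and the median of the 20 was 0.06.

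*Mavs*, the adaptor that RIG-I and MDA5 share, stood at 13.6 TPM for wild type and 13.3 TPM for *duper* in cortex, at 16.6 and 14.8 TPM in SCN and at 14.5 and 14.3 TPM in liver. The 6 values thus lay between 13.3 and 16.6 TPM, and the genotypes overlapped. The 95% counting interval of the ratio included 1 in each tissue, and it was narrowest in liver, at 0.922 to 1.05. The log2 fold change of *duper* over wild type was −0.01 (standard error 0.14), with values of either sign when a library was left out.

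*Traf3*, a ubiquitin ligase that links MAVS and the endosomal receptors to TBK1, stood at 39.0 TPM for wild type and 36.4 TPM for *duper* in cortex and 37.4 and 39.3 TPM in SCN. In liver it had 6.08 and 4.81 TPM. All 4 brain values were far above both liver values, and the genotypes overlapped in the brain. The ratio of *duper* over wild type in liver was 0.791 (95% counting interval 0.743 to 0.844), whereas the intervals in cortex and SCN included 1. *Traf3* was the most abundant of the 10 in each brain library, at 2.25 to 2.87 times the TPM of *Mavs*, and in liver it was at 0.420 and 0.337 times the TPM of *Mavs*.

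*Tbk1*, the kinase that phosphorylates IRF3, stood at 27.8 TPM for wild type and 24.3 TPM for *duper* in cortex, at 29.3 and 27.8 TPM in SCN and at 21.0 and 13.5 TPM in liver. The *duper* library was the lower in each tissue, and both liver values were below the 4 brain values. In liver the ratio was 0.643 (95% counting interval 0.607 to 0.682, from 2634 and 2109 counts), while the intervals in cortex (0.743 to 1.03) and SCN (0.835 to 1.07) included 1. Across tissues the log2 fold change was −0.26 (standard error 0.12), the most negative of the 10 after *Ikbke*, and it did not reach an unadjusted p under 0.05.

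*Ikbke* encodes IKKε, the inducible relative of TBK1. It stood at 2.81 TPM for wild type and 1.64 TPM for *duper* in cortex, at 1.42 and 0.616 TPM in SCN and at 2.39 and 2.70 TPM in liver. The *duper* value was the lower in both brain tissues and the higher in liver, but the counts were small, with 21 and 19 in cortex and 58 and 5 in SCN. All 3 counting intervals included 1, and the log2 fold change of −0.42 had a standard error of 0.41. *Tbk1* exceeded *Ikbke* by a factor of 4.99 in *duper* liver, the smallest of the 6 libraries, and of 45.0 in *duper* SCN, the largest.

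Of 20 partners of TBK1, the IKK complex and MAVS, 0 were called for genotype in edgeR and 0 had an unadjusted p under 0.05, with 7 higher and 13 lower in *duper* and a median log2 fold change of −0.02. The largest absolute values belonged to *Nlrc3*, at −0.45 (standard error 0.32), *Traf5*, at −0.34 (0.37), and *Nfkb1*, at 0.27 (0.12). *Irf3*, the substrate of TBK1, stood at 46.0 and 37.6 TPM in wild-type and *duper* cortex, at 55.4 and 49.4 TPM in SCN and at 38.8 and 31.1 TPM in liver. Its *duper* value was thus the lower in each tissue, as for *Tbk1*, at a log2 fold change of −0.21 (standard error 0.12). *Otud5*, a deubiquitinase that acts on TRAF3, was the most abundant of the list, at −0.08.

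**Figure D2:**
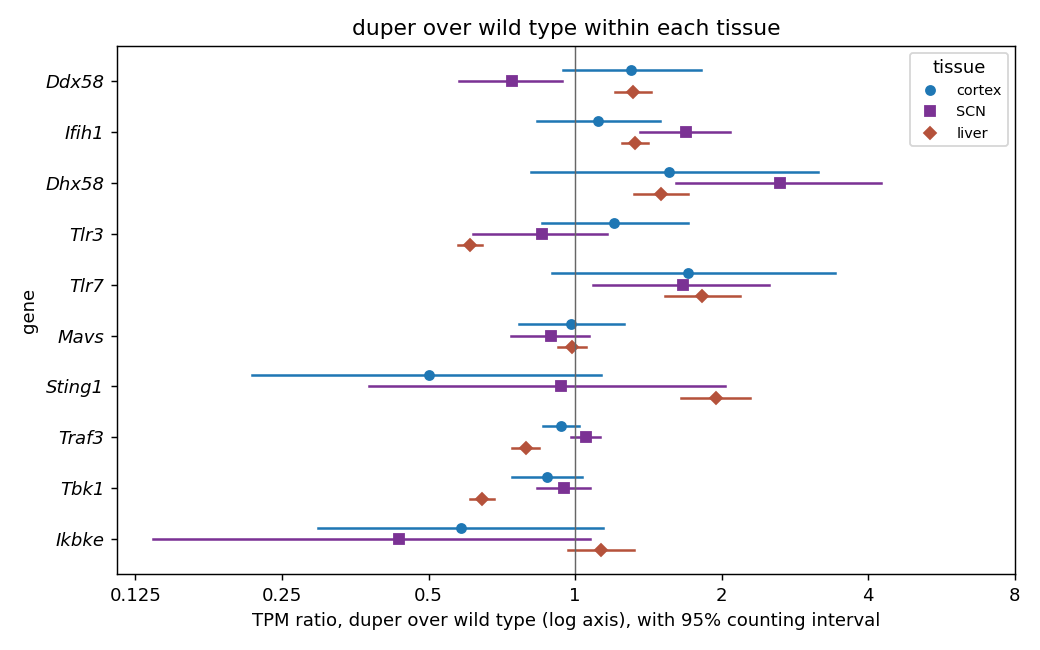
TPM ratio of *duper* over wild type (log axis) for each sensing gene in cortex (circles), SCN (squares) and liver (diamonds), with lines for the 95% counting interval, which holds no spread between hamsters. The 3 ratios of *Tlr7* lie between 1.67 and 1.82, that of *Ddx58* is 0.741 in SCN and 1.31 in liver, and the widest interval is that of *Ikbke* in SCN, from 0.136 to 1.07.

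*Tlr3*, the endosomal receptor for double-stranded RNA, stood at 4.37 TPM for wild type and 5.25 TPM for *duper* in cortex, and 4.01 and 3.42 TPM in SCN. Its liver level was 15.7 TPM for wild type and 9.54 TPM for *duper*, with 2620 and 1984 counts. Both liver values were above all brain values, and wild-type liver stood highest. The liver ratio was 0.609 (95% counting interval 0.574 to 0.645), and the intervals in cortex and SCN included 1. The log2 fold change across tissues was −0.23 (standard error 0.18).

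*Tlr7*, the endosomal receptor for single-stranded RNA, stood at 1.15 TPM for wild type and 1.96 TPM for *duper* in cortex, at 1.41 and 2.36 TPM in SCN and at 1.14 and 2.07 TPM in liver. Its *duper* values, 1.96 to 2.36 TPM, all lay above its wild-type values, 1.14 to 1.41 TPM, irrespective of tissue. No share of all genes is given for such a separation. The cortex ratio was 1.71 (95% counting interval 0.898 to 3.42), the SCN ratio 1.67 (1.09 to 2.51) and the liver ratio 1.82 (1.53 to 2.18). The cortex values rest on 14 and 36 counts, and that interval includes 1. The log2 fold change across tissues was 0.86 (standard error 0.28), and it lay between 0.49 and 0.92 over the 16 other settings, with an adjusted p of 0.366 to 1.

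*Tlr7* and *Ddx3x* are X-linked in mammals, and only the wild-type pools held male RNA, so for these genes the sexes of the hamsters are a direct limit. In the BCM_Maur_2.0 annotation *Tlr7* lies between *Prps2* and *Tlr8*, and its neighbours were looked up after its values were seen. Of 6 neighbours, 5 were tested, and their log2 fold changes ran from −0.05 (standard error 0.12) for *Msl3* to 0.24 (0.47) for *Egfl6*, beside 0.86 for *Tlr7*. The adjacent *Prps2* stood at 0.09 (standard error 0.20), *Tmsb4x* at 0.16 (0.15) and *Frmpd4* at 0.15 (0.18). *Tlr8* had at most 3 counts in each brain library, and its liver ratio was 0.912 (95% counting interval 0.765 to 1.09). Within SCN alone, *Egfl6* had a ratio of 1.80 (1.04 to 3.01), close to that of *Tlr7*. A search by symbol for Y-linked genes and *Xist*, 6 in all, matched 0, so the sexes were not checked by expression. A neighbour need not respond to sex as *Tlr7* does, so the neighbours cannot decide what part sex had in the *Tlr7* result. That part was not tested.

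*Tlr7* is expressed mainly by macrophages, microglia and some dendritic and B cells. Of 20 macrophage and microglia markers, 18 were tested, of which 17 were higher in *duper*. Their median log2 fold change was 0.40, where that of all genes was 0.01. At an unadjusted p under 0.05, 6 were higher (1.79% of all genes tested) and 1 lower (1.52%). In edgeR and limma 0 were called, whereas DESeq2 called *Siglec1*. The summed TPM of the list came to 537 for wild type and 599 for *duper* in cortex, to 633 and 746 in SCN and to 943 and 1486 in liver. The most abundant marker was *C1qc*, and *Siglec1*, itself inducible by interferon, had the largest log2 fold change, 1.07 (standard error 0.16). *Clec4f*, a defining marker of Kupffer cells, was at 0 in both cortex libraries and had 50.4 and 95.7 TPM in wild-type and *duper* liver. Most of these markers were thus higher in *duper*, as were *Tlr7*, *Ifih1* and *Dhx58*, and their part in those results was not tested. Of 12 markers of B, T and plasmacytoid dendritic cells, 7 were tested and 5 of these were higher, none at an unadjusted p under 0.05. Their summed TPM came to 20.2 for wild type and 18.9 for *duper* in cortex, to 19.3 and 26.9 in SCN and to 40.3 and 45.8 in liver, with *Irf8* the most abundant and *Cd3d* at 0 in 3 of the 4 brain libraries.

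Of the other genes of the endosomal branch, 13 were present and 12 tested, with 6 higher and 6 lower in *duper*, 0 called in edgeR and 0 at an unadjusted p under 0.05. The largest absolute values were 0.34 (standard error 0.20) for the lysosomal protease *Ctsb*, 0.31 (0.22) for *Hsp90b1*, the chaperone of these receptors and the most abundant of the list, and 0.30 (0.26) for *Ticam1*, the adaptor of TLR3. *Ticam1* stood at 1.54 and 1.71 TPM in wild-type and *duper* cortex, at 0.640 and 1.39 TPM in SCN and at 10.2 and 9.08 TPM in liver. Like *Tlr3*, it was highest in liver in both genotypes. *Unc93b1*, which carries the receptors to endosomes, was at 0.29 (standard error 0.18).

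*Sting1*, the adaptor of cytosolic DNA sensing, stood at 2.57 TPM for wild type and 1.29 TPM for *duper* in cortex, at 1.15 and 1.08 TPM in SCN and at 2.53 and 4.91 TPM in liver. It was lower in *duper* cortex and higher in *duper* liver, but the cortex values rest on 16 and 12 counts and the SCN values on 38 and 8. The ratio was 0.501 in cortex (95% counting interval 0.216 to 1.13) and 1.94 in liver (1.65 to 2.29, from 214 and 520 counts). The log2 fold change was 0.23 with a standard error of 0.48, the largest of the 10, and it was −0.62 when liver was left out. Of 4 neutrophil markers, 3 were higher and 1 lower in *duper* across tissues, with 0 called in edgeR and *Csf3r*, at 0.86 (standard error 0.26), alone at an unadjusted p under 0.05. Their summed TPM came to 40.7 for wild type and 9.55 for *duper* in cortex, to 9.0 and 6.16 in SCN and to 54.4 and 87.4 in liver, with *S100a9* the most abundant. Of 6 endothelial markers, 2 were higher and 4 lower, with 0 called in edgeR and 0 at an unadjusted p under 0.05, and their summed TPM came to 123 and 98.5 in cortex, to 108 and 111 in SCN and to 78.4 and 75.2 in liver, with *Cldn5* the most abundant. The part of these cells in the values of *Sting1* was not tested.

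Of 18 further genes of the DNA-sensing branch, 13 were higher and 5 lower in *duper*, with 0 called in edgeR, 0 at an unadjusted p under 0.05 and a median log2 fold change of 0.09. *Cgas*, the enzyme upstream of STING, was listed at 0 in both cortex libraries, and had 0.584 and 1.73 TPM in wild-type and *duper* SCN and 1.03 and 1.14 TPM in liver. In brain *Cgas* was thus measured near the lower limit of the libraries, with 20 and 14 counts in SCN, whereas in liver it had 96 and 132 counts. The largest absolute values among genes averaging at least 1 TPM were those of the nucleic acid sensors *Zbp1*, at 1.02 (standard error 0.58), and *Aim2*, at −0.37 (0.42), and of the deoxynucleotide hydrolase *Samhd1*, at 0.27 (0.14). *Tmed2*, a cofactor of STING trafficking, was the most abundant, at 0.18.

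Downstream of the sensors, a list of 18 genes of the interferon response was searched by symbol. The 14 that were matched and tested include *Ddx58*, *Ifih1* and *Dhx58*, whose values are thus counted here again. The list was chosen with earlier results of these data known, and the authors had already reported *Irf7* and *Isg15* as changed in *duper*. The counts that follow are therefore a description and not an independent check. In the edgeR fit across tissues all 14 had a positive log2 fold change, with a median of 0.75, and 11 had an unadjusted p under 0.05, as did 1.79% of all genes in that direction, whereas *Ddx58*, *Stat2* and *Rsad2* did not. That limit was reached by 10 of the 14 in DESeq2 with size factors and by 6 in limma. In edgeR and limma 0 of the 14 were called, whereas DESeq2 called 3 of them, *Irf7*, *Isg15* and *Mx2*, with size factors and with length offsets. In the other lists described here, DESeq2 called only *Siglec1* and limma called 0 genes. Within tissues, by TPM, 10 of 13 with a mean of at least 1 TPM were higher in *duper* cortex, where *Usp18*, *Stat2* and *Rsad2* were lower, and 53.3% of all genes were higher. In SCN 12 of 14 were higher (53.3% of all genes), with *Ddx58* and *Rsad2* lower, and in liver 13 of 13 were higher (36.2%). Without liver the fitted value of *Ddx58* was −0.18. The largest absolute value was that of *Mx2*, at 3.32 (standard error 0.55), which was listed at 0 or next to 0 in both cortex libraries and at 1.16 and 5.79 TPM in wild-type and *duper* liver. *Isg15* and *Irf7* came next with 2.05 and 1.25, and *Irf9*, the most abundant, was at 0.36 (standard error 0.11). *Ddx58*, at 0.08, therefore had the smallest value of the list together with *Stat2*, also at 0.08. Of the 18 macrophage and microglia markers tested, 17 were also higher in *duper*, with a median of 0.40. Their part in the values of the interferon list was not tested. Among 4 tested of 5 effector sensors of double-stranded RNA, all 4 had a positive log2 fold change. An unadjusted p under 0.05 was reached by 2 (1.79% of all genes in that direction). They were *Oas2* at 1.48 (standard error 0.52) and *Eif2ak2*, which encodes the kinase PKR, at 0.72 (0.19). *Adar*, the editor of double-stranded RNA and the most abundant of the effector sensors, was at 0.21 (standard error 0.12). *Oas3*, near 0 in the brain libraries, was not tested in edgeR and was not called by DESeq2. Its liver level was lower in *duper*, at 22.3 TPM for wild type and 9.88 TPM for *duper*, with 4037 and 2215 counts. The summed TPM of the list was 39.7 for wild type and 32.1 for *duper* in liver, but 109.3 and 119.9 for cortex and 108.0 and 128.9 for SCN.

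Levels of the 10 were also compared between tissues. Between SCN and cortex, 0 of the 10 were called in edgeR, beside 11.2% of all genes tested, with 0 of the 10 at an unadjusted p under 0.05 and 0 called by DESeq2 or limma. The log2 fold changes of SCN over cortex ran from −0.96 (standard error 0.54) for *Ikbke* to 0.34 (0.28) for *Ddx58*. Of the pathway and interferon genes listed beside them, *Unc93b1* (1.01), *Cnpy3* (0.64), *Ctsk* (1.67), *Cgas*, *Irf7* and *Mx2* were called higher in SCN. *Ddx41* (−0.65) was called lower. Of the markers given earlier, 1 SCN marker and 1 erythroid marker were called higher, and 1 choroid plexus marker and *Slc17a7* (−6.89) lower. Of all genes called, 715 were higher and 1330 lower in SCN, and 1398 were higher and 1041 lower with library size in place of TMM, which moved the median of all genes from 0.02 to 0.19.

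Between liver and the mean of the brain tissues, all 10 were called in edgeR, 9 higher in liver (33.3% of all genes tested) and *Traf3* lower (34.1%). This contrast depends on how the libraries are scaled. The median of all genes was −0.00 with TMM, −1.21 with library size and −1.21 with limma on log2 of TPM plus 1. Of all genes called, 6083 were higher and 6226 lower in liver with TMM, 2633 and 11001 with library size, and 2401 and 11957 with limma. Relative to that median, *Tlr3* was higher in liver by 3.10 with TMM and by 2.55 with limma, *Sting1* by 2.88 and 2.10, and *Dhx58* by 2.63 and 1.99. In the same terms *Ifih1* was higher by 2.33 and 1.82, *Ikbke* by 2.50 and 1.71, *Ddx58* by 1.56 and 1.27, *Mavs* by 1.58 and 1.19, *Tlr7* by 1.47 and 1.14, and *Tbk1* by 0.88 and 0.54, whereas *Traf3* was at −1.21 and −1.40. Without reference to the median, limma on TPM gave −0.66 for *Tbk1*, −0.06 for *Tlr7* and −0.02 for *Mavs*, so that the direction of these 3 flips, and called 3 of the 10 as higher and 2 as lower.

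By TPM itself, *Tlr3*, *Dhx58* and *Ifih1* had both liver values above all 4 brain values, with liver means 2.96, 1.97 and 1.65 times the brain mean. *Tbk1* and *Traf3* had both liver values below all brain values, with brain means 1.58 and 6.98 times the liver mean. *Mavs*, *Ddx58*, *Tlr7*, *Ikbke* and *Sting1* overlapped between liver and brain. No share of all genes is given for such a separation, so these groups describe the 10 only. The order of levels in each brain library began with *Traf3*, *Tbk1* and *Mavs*. In wild-type liver *Tbk1* led, followed by *Tlr3* and *Mavs*, which differed by 15.7 against 14.5 TPM. In *duper* liver *Mavs* and *Tbk1* led with 14.3 and 13.5 TPM, an order opposite to that of wild type. *Tlr7* was the lowest of the 10 in wild-type cortex and in both liver libraries, *Sting1* in *duper* cortex and wild-type SCN, and *Ikbke* in *duper* SCN.

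The deposited transcript values split the 10 genes into 38 annotated models, with 1 model each for *Dhx58* and *Tbk1*. Of the 8 genes with several, 4 had the same leading model in all 6 libraries. *Ddx58* had a model of 3532 bases with 2.08 and 2.64 TPM in wild-type and *duper* liver and 0 in the 4 brain libraries. Its leading model, of 3445 bases, held 64.9% to 81.7% of its TPM in brain and 34.2% and 40.0% in liver. *Tlr7* had a model of 4104 bases with 0.449 and 0.432 TPM in the liver libraries and next to nothing in brain. Both models were thus seen in liver in both genotypes. The brain libraries held 14 to 86 counts of *Tlr7*, against 188 and 426 in liver, so absence of its model in brain is not shown. In *Ifih1* the model of 6557 bases held 100.0% of the TPM in wild-type SCN, whereas that of 6619 bases held 53.9% in *duper* SCN and led in the other 4 libraries. *Ikbke*, with 12 models, had 44 of its 72 values at 0. Reads shared between such similar models are assigned by estimation, and these shares have no replicate and were not tested.

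The named genes whose pattern over the 6 libraries came closest to that of each member were found by the root mean square difference of centred log2(TPM + 1) among 13503 named genes averaging at least 1 TPM. *Ifih1* was nearest to *P2ry13* (0.09) and *Adgre1* (0.12), both expressed by macrophages and microglia, and *Dhx58* to *Ifih1* (0.17) and *Immp2l* (0.17). *Tlr7* was nearest to *Rasal3* (0.09) and *Dpagt1* (0.13), and *Ddx58* to *Gcnt1* (0.09) and *Lrig3* (0.09). For *Mavs* these were *Sbds* (0.05) and *Dab2* (0.05), and for *Traf3* they were *Dynll2* (0.04) and *Dnajb4* (0.05). *Tbk1* was nearest to *Mospd2* (0.07) and *Optn* (0.07), *Ikbke* to *Stat6* (0.13) and *Relb* (0.14), *Tlr3* to *Atl2* (0.07) and *Gdf9* (0.11), and *Sting1* to *Samd13* (0.09) and *F2rl2* (0.16). Only *Dhx58* thus had another of the 10 among its nearest genes.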

How the data were processed

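The authors quantified reads with Kallisto (version not given in the sources used here) against the MesAur2.0 hamster reference and used tximport to sum transcripts. The authors deposited the estimated count and the TPM of each gene in separate tables, and both values per transcript in a table for each library. The estimated counts were rounded, and R 4.3.3 with edgeR 4.0.16 was used for the test (TMM, filterByExpr by genotype, quasi-likelihood F test, Benjamini-Hochberg adjustment over all 18275 genes tested), with tissue and genotype as terms and 2 residual degrees of freedom. Standard errors are the absolute log2 fold change over the square root of F. DESeq2 1.42.0 and limma 3.58.1 were alternatives. Within a tissue, TPM ratios carry 95% Clopper-Pearson intervals on the estimated counts (scipy 1.17.1). The steps were tested on simulated data. Python 3.11.15, numpy 2.4.6, pandas 2.3.3 and matplotlib 3.10.9 were used. Genes named are the members, *Cry1*, up to 3 genes of largest genotype change (mean at least 1 TPM) and the most abundant gene of each list, examples called in a comparison, and the 2 nearest genes per member. Other genes named, such as *Ddx3x*, *Irf3* and *Trim25*, were chosen after their values were seen. Members and lists were chosen with earlier results of these data known. Promoters were not searched, since no sequence was used here.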

Additional observations from a re-analysis of the deposited data

Results flagged for a closer look

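*Ddx58* had a lower level in *duper* than in wild type in SCN (6.63 against 8.95 TPM) and a higher level in liver (8.24 against 6.27 TPM), and the counting interval of each ratio left out 1. The log2 ratio of TPM plus 1 was 0.73 greater in liver than in SCN. Each value comes from 1 library per genotype, and the difference between the tissues was not tested.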

How the results depend on the processing

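The number of genes called for *duper* over wild type was 1 with edgeR, 41 and 37 with DESeq2 (size factors or length offsets), 48 with no filter beyond 1 count, 91 with the likelihood ratio test and 3 with limma. It was 2 without cortex, 34 without SCN and 22 without liver, and 0 to 42 with 1 library left out. None of the 10 members was called in any of these settings. The sign reversed for *Ddx58* and *Sting1* without the liver tissue (−0.18 and −0.62) and for *Mavs* without SCN (0.0349). With 1 library left out the values ran from −0.18 to 0.33 for *Ddx58*, −0.114 to 0.0515 for *Mavs* and −0.63 to 0.66 for *Sting1*. The other 7 members kept their sign in every setting.

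SCN over cortex gave 3186 calls with the likelihood ratio test and 267 to 3565 with 1 library left out. There the sign of *Ifih1* reversed with length offsets (−0.0223) and limma (−0.0279) and that of *Dhx58* with library size (0.0229). With 1 library left out the values ran from −0.0771 to 0.69 for *Ddx58*, −0.23 to 0.22 for *Ifih1*, −0.48 to 0.19 for *Dhx58*, −0.0678 to 0.14 for *Traf3* and −1.36 to 0.33 for *Sting1*. Liver over brain reversed for *Tbk1* with library size (−0.33) and limma (−0.66), and with limma for *Mavs* (−0.0169) and *Tlr7* (−0.0645). The liver median of the members within the tissue was 0.38 with TMM-normalized CPM and 0.40 with rescaled TPM, where that of all genes was 0.06 and 0.04. With 1 library left out the lone library is assumed to vary like the others. *Ikbke* and *Sting1* could not be fitted with at least 10 counts in every library. In settings chosen after seeing the data, *Ifih1*, *Dhx58* and *Tlr7* were higher in *duper* in all 3 tissues with TMM-normalized CPM, with rescaled TPM and relative to the median of all genes. The causes were not tested. The fit compares the genotypes within tissues, and no pairing by replicate number was added, since each group holds 1 library.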
